A study of Sus scrofa with 12 samples.

Results

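The genes described here encode the subunits of the RNA polymerases I, II and III and the general transcription factors that place these polymerases at promoters. They were chosen by gene symbol: POLR1, POLR2 or POLR3 followed by a letter, GTF2A to GTF2H, GTF3A and GTF3C, TAF followed by a digit, and TBP, TBPL1 and TBPL2. The rule found 69 of the 29329 genes in the count table, and all 69 passed the filter on low counts. TBP itself, TAF1, POLR2J, POLR2L, POLR3G, GTF3C5 and GTF2H2 are not analysed here.

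The study sequenced porcine embryos made by in vitro fertilization, in small pools, with SMART-seq, which amplifies full-length cDNA from very little RNA. There were 12 libraries in 4 groups of 3: blank control embryos titled 2c (con-2c) or 4c (con-4c), and embryos injected with Si-CCNB2, a small interfering RNA against cyclin B2, titled 2c (si-2c) or 4c (si-4c). Groups follow the titles, but in all 12 libraries the tissue label gives the other stage: libraries titled 2c are labelled as embryos at the 4-cell stage and the reverse. With the tissue label, each comparison between stages would change sign and each si comparison would change its stage. The labels call the controls blank, whereas the study's methods call them both normal embryos and an NC (negative control) group, so whether the control embryos were injected is not settled by the sources used here. In pools of embryos, fewer cells and less RNA per cell cannot be told apart.

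RNA polymerase I makes ribosomal RNA, RNA polymerase II makes messenger RNA, and RNA polymerase III makes transfer RNA and other short RNAs. Each enzyme has catalytic and structural subunits of its own and small subunits that it shares with the others, and each is brought to its promoters by TBP or a relative of it together with TBP-associated factors (TAFs). A newly fertilized egg makes little RNA and lives on messengers stored in the oocyte. Transcription from the embryo's own genome starts later, in pigs mainly around the 4-cell stage, and germ cells are known for using alternative forms of several of these factors.

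The count totals ran from 27785233 to 39510908 per library. CCNB2 (ENSSSCG00000004588), the targeted gene, was at 443.6 to 487 CPM in con-2c and 429 to 510.4 in con-4c, with 17.8 to 28.8 in si-2c and 40.3 to 46.8 in si-4c. CPM, counts relative to the total of their library, were scaled by TMM factors throughout. Oocyte and embryo markers were abundant, with 12 of 13 in the table and sums of 21217 to 26074 CPM in con-2c and 11738 to 12455 in con-4c, with 11873 to 13605 in si-2c and 24234 to 26280 in si-4c. Most of this sum is BTG4, and without it the other 11 summed to 5786 to 5976, 4440 to 4587, 4730 to 4908 and 5359 to 5499 CPM in the same order, while NLRP9 (means of 1174, 1556, 1606 and 1251) and BMP15 (887, 985, 1228 and 1046) were lowest in con-2c. Cumulus cell markers other than VCAN summed to 6.33 to 13.6 CPM over all libraries. VCAN itself was at 289 to 367 CPM in con-2c and 172 to 183 in con-4c, with 168 to 194 in si-2c and 289 to 299 in si-4c, and sperm-linked LDHC at 53.1 to 58.7, 34.4 to 42.6, 39.3 to 48.9 and 51.4 to 56.4. Blood markers summed to 1.92 to 2.63 CPM in con-4c and to 0.238 to 0.81 in the other libraries. Fibroblast markers summed to 4.96 to 5.53 CPM in con-2c and 7.99 to 8.26 in con-4c, with 5.73 to 7.42 in si-2c and 4.72 to 4.92 in si-4c. This difference lay in COL3A1 (means of 0, 1.69, 1.04 and 0 in the same order) and COL1A1 (0.109, 1.60, 0.798 and 0.0578). COL1A2 (3.44, 3.47, 3.23 and 3.58) and DCN (1.66, 1.36, 1.54 and 1.19) did not share it. EIF1AX and DPPA2, known as genes switched on with the embryo's genome in pigs, were at 33.2 ± 3.66 and 36.8 ± 0.714 CPM in con-2c and at 174 ± 7.19 and 171 ± 12.5 in con-4c, so in the control embryos both were higher at the later stage by the titles and at the earlier stage by the tissue label. Their differences were 1.43 and 1.25 in the 2c si contrast and -2.12 and -2.11 in the 4c si contrast. The oocyte marker sum, VCAN and LDHC were high in con-2c and si-4c, as were several genes below, and the low fibroblast sum was higher in con-4c and si-2c, as were others; their part in the results was not tested.

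Comparisons carry short names below: the control contrast (con-4c over con-2c), the 2c si contrast (si-2c over con-2c) and the 4c si contrast (si-4c over con-4c). In the control contrast 11 of the 69 genes were higher and 4 were lower. Called genes had an adjusted p under 0.05 and a change of at least 2-fold (edgeR's quasi-likelihood test with Benjamini-Hochberg adjustment over the 17995 genes tested). Among the rises were RNA polymerase subunits (POLR1C, POLR2K, POLR2B, POLR2I, POLR3B and POLR3F), the TFIID subunit TAF4B, the polymerase I factors TAF1C and TAF1D, and GTF2F1 of TFIIF. POLR3F and TAF1C, both scarce, entered the tests only through the groups where they were high. The falls were in TAF13, TAF9 and TAF9B of TFIID and in GTF2B, which is TFIIB. Among all genes 17.7% were called in this comparison, 14.4% higher and 3.25% lower, against 21.7% of these genes. Scaling by library totals in place of TMM gave 16 higher and 1 lower, so 94.1% of the calls were higher in place of 73.3%.

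**Figure D1:**
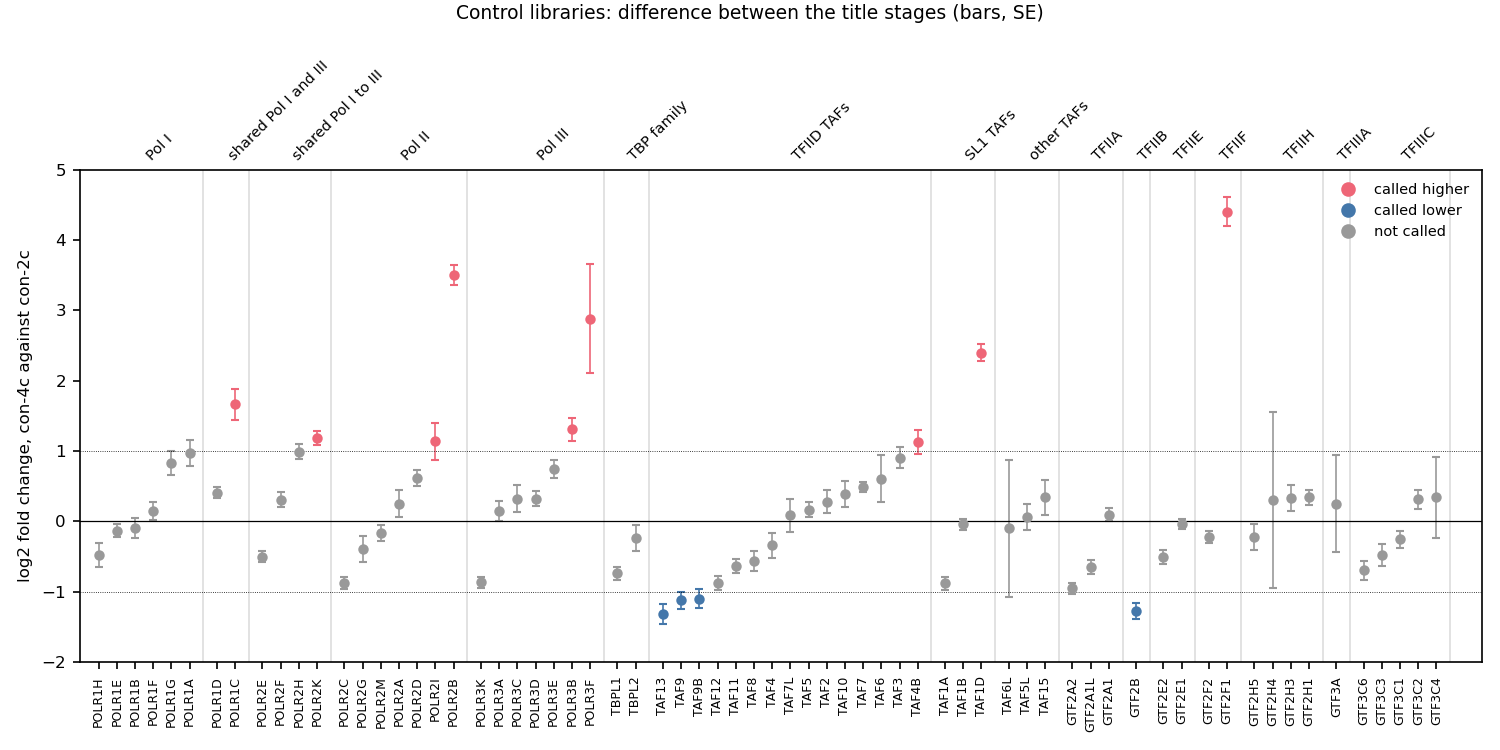
Log2 fold change of 67 of the 69 genes in con-4c over con-2c (y axis), grouped by complex along the x axis, with bars for the SE and dotted lines at a 2-fold change; TAF1C is left out because it had no count in con-2c, and 1 gene is not reported here. GTF2F1 at 4.40, POLR2B at 3.50 and POLR3F at 2.88 stand above the others, while most genes lie between the dotted lines. POLR3F passed the filter on low counts only through the groups where it was high.

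The general transcription factor GTF2F1 showed the greatest difference among the genes counted in every group. GTF2F1 (ENSSSCG00000013539, Sscrofa11.1 chromosome 2, 72687612 to 72698274) encodes the large subunit of TFIIF, which escorts polymerase II to the promoter. It was at 2.16, 2.41 and 3.50 CPM in con-2c and 60.1, 61.1 and 50.1 in con-4c, with 34.1, 37.4 and 28.2 in si-2c, then 4.05, 2.34 and 3.49 in si-4c. Thus con-4c and si-2c were high, con-2c and si-4c were low, and neither high group overlapped a low one. The fitted change was 21.2-fold between the control groups (log2 fold change 4.40, SE 0.21, adjusted p = 4.42e-11). In the 2c si contrast it was 3.62 (SE 0.20, adjusted p = 7.47e-10), and in the 4c si contrast it was -4.12 (SE 0.20, adjusted p = 7.29e-11). Its partner GTF2F2, the small TFIIF subunit, was at 99.8 ± 5.71 CPM in con-2c (SD, n = 3, as for all values written with ±) and 85.8 ± 3.01 in con-4c, with 102 ± 5.81 in si-2c and 105 ± 10.3 in si-4c, and was not called.

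The second largest subunit of polymerase II, POLR2B (ENSSSCG00000022955, chromosome 8, 56232730 to 56283367), forms the active centre with POLR2A. Its libraries were at 7.0, 6.0 and 5.13 CPM in con-2c and 71.5, 65.9 and 67.8 in con-4c, with 26.7, 30.8 and 30.1 in si-2c, then 7.41, 7.87 and 5.88 in si-4c. The order was the same as for GTF2F1, with si-2c between the control groups. POLR2B rose 11.3-fold from con-2c to con-4c (log2 fold change 3.50, SE 0.14, adjusted p = 4.47e-12) and differed by 2.27 in the 2c si contrast (SE 0.13, adjusted p = 1.55e-09) and by -3.28 in the 4c si contrast (SE 0.14, adjusted p = 8.15e-12). The catalytic subunit POLR2A (chromosome 12, 52779833 to 52806210) was at 13.6, 12 and 21.5 CPM in con-2c and 15.7, 20.5 and 20.0 in con-4c, with 22.1, 19.5 and 20.9 in si-2c, then 10.5, 15.1 and 13.6 in si-4c. Its control groups overlapped (0.25, adjusted p = 0.346), and in the 4c si contrast it passed the adjusted p without the minimum fold (-0.52, adjusted p = 0.0432). POLR2B shares its interval with IGFBP7 in RefSeq, and IGFBP7 was at 2.49, 2.64, 2.91 and 4.35 CPM over the 4 groups, the controls first and title 2c before 4c within each.

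Among the other polymerase II subunits, POLR2I (chromosome 6, 45480785 to 45482318), a small subunit tied to transcript fidelity, was at 1.78, 3.45 and 3.26 CPM in con-2c and 5.36, 7.59 and 5.79 in con-4c, with 4.60, 4.66 and 3.80 in si-2c, then 2.67, 1.91 and 2.12 in si-4c. The control groups did not overlap and the difference was called (1.14, SE 0.26, adjusted p = 0.0025), as was si-4c against con-4c (-1.48, adjusted p = 0.000302). Without con-2c replicate 1 the control difference was 0.89 and without con-4c replicate 2 it was 0.97, both under the minimum fold. POLR2D, which forms the stalk of the enzyme with POLR2G, passed the adjusted p without the minimum fold in the controls (0.61, adjusted p = 0.000511), whereas POLR2C, an assembly subunit, had the other sign (-0.88, adjusted p = 4.08e-07). POLR2G (-0.39, adjusted p = 0.117) and POLR2M, a polymerase-bound inhibitor of initiation (-0.17, adjusted p = 0.28), did not pass the test there.

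Of the small subunits that all of the enzymes share, 4 were measured, and these did not move alike. POLR2K (chromosome 4, 36849729 to 36852622) was at 100.3, 122.8 and 101 CPM in con-2c and 239.9, 239 and 257 in con-4c, with 128, 124 and 104 in si-2c, then 91.0, 92.9 and 101 in si-4c. The con-4c libraries lay above all others, with a difference from con-2c of 1.18 (SE 0.10, adjusted p = 6.26e-08). Against con-4c, si-4c differed by -1.37 (adjusted p = 1.04e-08) and si-2c by -1.05 (adjusted p = 4.58e-06). The si groups did not overlap each other either, with si-4c at -0.32 against si-2c (adjusted p = 0.0204). POLR2H, another shared subunit, was at 22.0 ± 2.11 CPM in con-2c and 43.7 ± 1.59 in con-4c, with 35.9 ± 1.44 in si-2c and 24.9 ± 3.04 in si-4c, and its control difference of 0.99 (adjusted p = 1.51e-06) was just short of the minimum fold. POLR2H was called there by DESeq2 (1.02), with library totals (1.27) and with a minimum of 5 CPM (1.06). The same held without con-2c replicate 1 (1.06) or con-4c replicate 1 (1.003). POLR2E had the opposite sign in the controls (-0.50, adjusted p = 6.48e-05).

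POLR2F, a shared subunit at the clamp of the enzymes, differed in si embryos in the same direction under both titles. POLR2F (chromosome 5, 9905359 to 9917721) was at 58.6, 70.3 and 66.9 CPM in con-2c and 82.5, 76.8 and 82.9 in con-4c, with 38.2, 43.8 and 32.9 in si-2c, then 43.8, 42.0 and 44.7 in si-4c. All 6 si libraries lay under all 6 control libraries. The difference was -0.77 in the 2c si contrast (SE 0.10, adjusted p = 2.5e-05) and -0.89 in the 4c si contrast (SE 0.10, adjusted p = 3.38e-06), and the interaction of si with title stage was -0.12 (SE 0.15, adjusted p = 0.544). Library totals gave -1.15 in the 4c si contrast, past the minimum fold. They moved the median of all genes from 0.12 to 0.52 in the 2c si contrast and from -0.23 to -0.88 in the interaction. How even the 2 POLR2F differences are therefore depends on the scaling. Of the 24 genes here that passed the adjusted p in both si contrasts, which share no library, POLR2F alone had the same sign in each, and the other 23 had opposite signs. Among all genes tested 3924 passed in both, 58 of them with the same sign (0.322% of all tested) and 3866 with opposite signs (21.5%).

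Polymerases I and III share a pair of subunits. POLR1C (chromosome 7, 38511521 to 38531938), which starts the assembly of both enzymes, was at 3.12, 3.95 and 5.38 CPM in con-2c and 11.5, 15.3 and 12.6 in con-4c, with 4.60, 4.69 and 3.26 in si-2c, then 3.72, 4.34 and 4.84 in si-4c. As with POLR2K, con-4c alone was high: the difference was 1.66 from con-2c (SE 0.22, adjusted p = 1.55e-05), with si-4c at -1.61 against con-4c (adjusted p = 2.06e-05) and si-2c at 0.01 against con-2c (adjusted p = 0.984). The overlapping gene XPO5 was at 21.5 and 38.7 CPM in con-2c and con-4c and at 28.3 and 20.1 in the si groups, and the counting was not stated to use strand. Its assembly partner POLR1D passed the adjusted p without the minimum fold (0.41 in the controls, adjusted p = 0.000701, and -0.47 in the 4c si contrast, adjusted p = 0.000195).

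None of the 6 subunits of polymerase I alone was called between the control groups by edgeR with TMM scaling, whereas DESeq2 called POLR1A (1.01) and library totals called POLR1A (1.24) and POLR1G (1.09). POLR1A was also called with a minimum of 5 CPM (1.05) and without con-2c replicate 2 (1.003), con-2c replicate 3 (1.05) or con-4c replicate 3 (1.11). POLR1A (chromosome 3, 58670377 to 58750441), the catalytic subunit, was at 5.0, 6.36 and 6.95 CPM in con-2c and 11.7, 14.6 and 9.72 in con-4c, with 8.16, 7.10 and 8.58 in si-2c, then 5.40, 5.58 and 4.72 in si-4c. Its control difference of 0.98 (SE 0.18, adjusted p = 0.000466) was under the minimum fold by a small margin although the groups did not overlap, and in the 4c si contrast it fell by 1.20 on the log2 scale (adjusted p = 7.12e-05). POLR1G passed the adjusted p in the controls at 0.83 (adjusted p = 0.00101) and POLR1H at -0.48 (adjusted p = 0.0327). POLR1B, POLR1E and POLR1F had differences of -0.10, -0.14 and 0.15 and did not pass the test.

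In polymerase III, POLR3B and POLR3F were among the subunits called higher in con-4c than in con-2c. POLR3B (chromosome 5, 13805157 to 13926733), the second largest subunit, was at 7.80, 6.21 and 9.90 CPM in con-2c and 18.9, 17.5 and 22.7 in con-4c, with 10.1, 11.8 and 11.2 in si-2c, then 8.55, 8.62 and 8.09 in si-4c. It rose by 1.31 in the controls (SE 0.17, adjusted p = 9.02e-06) and fell by 1.23 in the 4c si contrast (adjusted p = 1.71e-05). The catalytic subunit POLR3A (chromosome 14, 80410143 to 80471740) was at 37.6, 31.0 and 26.4 CPM in con-2c and 35.2, 37.6 and 32.1 in con-4c, with 24.6, 27.9 and 35.2 in si-2c, then 35.8, 35.5 and 32.3 in si-4c, so all 4 groups overlapped (0.14 in the controls, adjusted p = 0.471).

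POLR3F, a subunit needed for initiation, was scarce, at 0.226 ± 0.0251 CPM in con-2c and 1.69 ± 0.159 in con-4c, with 0.728 ± 0.138 in si-2c and 0.289 ± 0.251 in si-4c. POLR3F passed the filter on low counts only through the groups where it was high, which favours finding a difference, and its control difference was 2.88 (SE 0.78, adjusted p = 0.00788). Among other subunits, POLR3E (0.75, adjusted p = 0.000169) and POLR3D (0.32, adjusted p = 0.0294) passed the adjusted p without the minimum fold, POLR3K did so with the other sign (-0.87, adjusted p = 2.45e-07), and POLR3C did not pass (0.32, adjusted p = 0.219).

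TFIID recognizes the core promoter, and 15 of its TAFs were measured. Of these, TAF9, TAF9B and TAF13 were called lower in con-4c and TAF4B higher. TAF9 (chromosome 16, 47494841 to 47499568) was at 464.8, 443 and 341 CPM in con-2c and 166, 204 and 203 in con-4c, with 163, 186 and 204 in si-2c, then 464, 419.6 and 406 in si-4c. Here con-2c and si-4c were high, and con-4c and si-2c low, without overlap (-1.13 in the controls, SE 0.12, adjusted p = 1.05e-06). The differences were -1.18 in the 2c si contrast (adjusted p = 1.08e-06) and 1.17 in the 4c si contrast (adjusted p = 6.47e-07). AK6, which overlaps TAF9, moved with the same signs (-0.65, -0.98 and 0.79) without being called. With library totals TAF9 lost all 3 calls, at -0.84, -0.77 and 0.91, each still past the adjusted p.

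TAF13 (chromosome 4, 110980816 to 110991941) was at 119, 120.4 and 77.0 CPM in con-2c and 38.0, 45.5 and 43.5 in con-4c, with 39.2, 39.7 and 47.3 in si-2c, then 87.5, 93.3 and 82.5 in si-4c. Its differences were -1.32 between the controls (SE 0.14, adjusted p = 1.42e-06), -1.33 in the 2c si contrast (adjusted p = 2.11e-06) and 1.05 in the 4c si contrast (adjusted p = 1.7e-05), the last becoming 0.98 without con-4c replicate 1 and 0.97 with a minimum of 5 CPM. Library totals ended the TAF13 calls in both si contrasts (-0.91 and 0.80) but not in the controls. TAF9B (chromosome X, 62214331 to 62228782), a close relative of TAF9, was at 70.1, 71.4 and 58.4 CPM in con-2c and 29.7, 30.0 and 33.4 in con-4c, with 22.3, 31.3 and 35.2 in si-2c, then 62.3, 56.7 and 55.9 in si-4c. It was called in the controls (-1.10, adjusted p = 6.47e-06) and in the 2c si contrast (-1.17, adjusted p = 5.18e-06), and in the 4c si contrast it passed the adjusted p only (0.91, adjusted p = 5.1e-05). Library totals ended both TAF9B calls (-0.82 and -0.77). TAF11 (-0.64, adjusted p = 0.000123) and TAF12 (-0.87, adjusted p = 2.59e-06) passed the adjusted p in the controls without the minimum fold.

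TAF4B, a form of TAF4 known from the germ line, had the other sign. TAF4B (chromosome 6, 110855636 to 110972798) was at 14.6, 10.2 and 14.8 CPM in con-2c and 28.3, 27.2 and 30.8 in con-4c, with 29.1, 22.2 and 21.0 in si-2c, then 12.6, 17.1 and 18.1 in si-4c. The con-4c and si-2c libraries were all above those of con-2c and si-4c, and the control difference was 1.13 (SE 0.17, adjusted p = 5.78e-05), or 0.96 without con-2c replicate 2. TAF3 (0.90, adjusted p = 0.000128) and TAF7 (0.49, adjusted p = 7.79e-05) passed the adjusted p with the same sign, and TAF8 (-0.56, adjusted p = 0.00642) with the opposite one. TAF2, TAF4, TAF5, TAF6, TAF7L and TAF10 lay between -0.34 (TAF4) and 0.61 (TAF6) and did not pass. TAF7L, the germ cell relative of TAF7 on chromosome X (82930258 to 82951065), was at 4.30, 3.45 and 4.67 CPM in con-2c and 5.27, 3.84 and 4.03 in con-4c, with 4.53, 4.45 and 5.02 in si-2c, then 4.23, 3.53 and 6.18 in si-4c, with all groups overlapping (0.08, adjusted p = 0.831).

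The TAFs of SL1, the factor that brings TBP to ribosomal RNA promoters, split in 3 ways. TAF1D (ENSSSCG00000038682, chromosome 9, 26154910 to 26167282) was at 9.67, 11.4 and 12.2 CPM in con-2c and 52.6, 66.6 and 55.9 in con-4c, with 29.0, 30.0 and 33.3 in si-2c, then 10.8, 11.13 and 11.2 in si-4c. Its pattern was that of POLR2B: 2.40 in the controls (SE 0.12, adjusted p = 1.15e-10), 1.47 in the 2c si contrast (adjusted p = 8.29e-08) and -2.40 in the 4c si contrast (adjusted p = 1.09e-10). CEP295, which overlaps TAF1D, was at 242 and 188 CPM in con-2c and con-4c and at 199 and 233 in the si groups.

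TAF1A (chromosome 10, 11340637 to 11362432) was at 481, 422 and 406 CPM in con-2c and 237, 229 and 245 in con-4c, with 226, 238 and 290 in si-2c, then 473, 512 and 475 in si-4c. It was called higher in the 4c si contrast (1.04, SE 0.09, adjusted p = 1.88e-07), while its control difference passed the adjusted p only (-0.88, adjusted p = 1.26e-06). The TAF1A call was lost with library totals (0.78) and with a minimum of 5 CPM (0.96). TAF1B did not pass in the controls (-0.05, adjusted p = 0.729). TAF1C (chromosome 6, 4448672 to 4457109) had no count in any con-2c library, 14, 4 and 22 counts in con-4c, with 18, 4 and 6 in si-2c, then 10, 0 and 4 in si-4c. Against a floor of 3 counts per con-2c library, TAF1C was at least 4.73-fold higher in con-4c and at least 2.44-fold higher in si-2c. The edgeR tests of the fitted differences, not of these bounds, gave adjusted p = 0.0139 and 0.0343. TAF1C entered the tests only through the groups that had counts. Without con-4c replicate 3 the bound in con-4c fell to 3.21-fold, and without si-2c replicate 1 the bound in si-2c fell to 1.28-fold. The si-2c call was lost on leaving out any 1 con-2c library, con-4c replicate 1 or 3, or si-2c replicate 1, with adjusted p from 0.0541 to 0.107.

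TFIIB, the bridge between promoter and polymerase II, is the single protein GTF2B (chromosome 4, 127522802 to 127559605). It was at 236, 235.5 and 183 CPM in con-2c and 78.8, 98.9 and 93.4 in con-4c, with 72.5, 84.9 and 90.6 in si-2c, then 231, 217 and 206 in si-4c. The differences were -1.27 in the controls (SE 0.11, adjusted p = 1.72e-07), -1.40 in the 2c si contrast (adjusted p = 9.87e-08) and 1.27 in the 4c si contrast (adjusted p = 1.7e-07), and the high and low groups did not overlap. With library totals the first 2 of these GTF2B values were -0.993 and -0.995, just under the minimum fold.

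**Figure D2:**
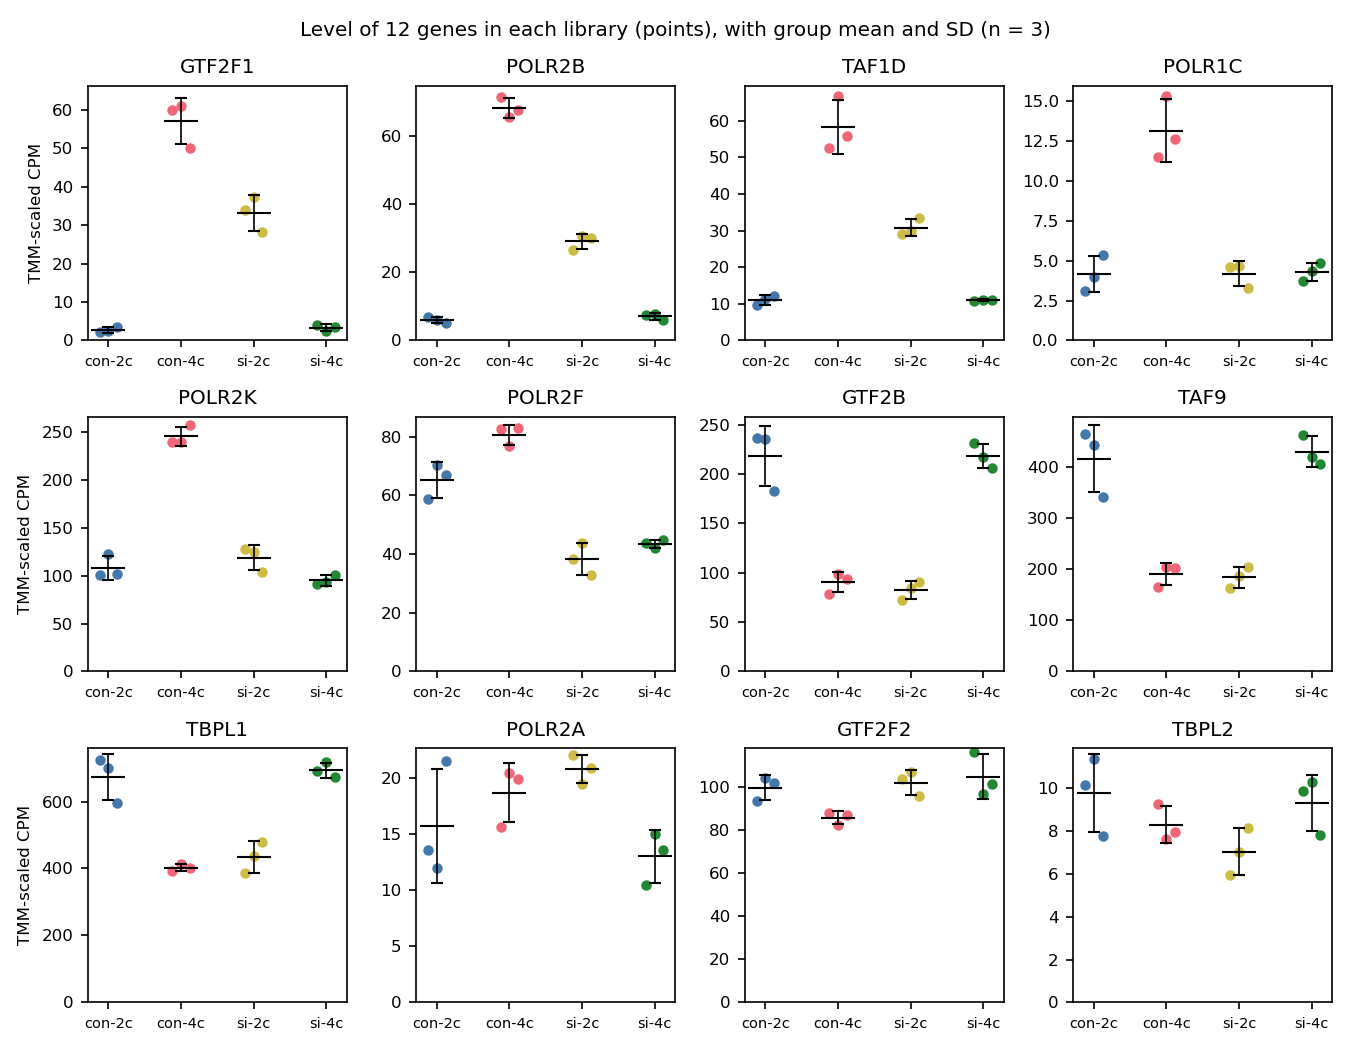
TMM-scaled CPM (y axis, from 0) of 12 genes in each of the 12 libraries (points) by group (x axis), with the mean and SD of 3 libraries. GTF2F1, POLR2B and TAF1D are high in con-4c and si-2c, GTF2B, TAF9 and TBPL1 are high in con-2c and si-4c, POLR1C and POLR2K are high in con-4c only, and all 6 si libraries of POLR2F lie under the 6 control libraries.

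Of the TBP relatives, TBPL1 (chromosome 1, 29899956 to 29936773), which works at promoters without a TATA box, was at 724, 700.04 and 594 CPM in con-2c and 392, 414 and 401 in con-4c, with 386, 437 and 480.1 in si-2c, then 691, 717 and 673 in si-4c. The groups separated in the same way as for GTF2B, and the differences passed the adjusted p without the minimum fold: -0.74 in the controls (SE 0.09, adjusted p = 5.15e-06), -0.63 in the 2c si contrast (adjusted p = 4.27e-05) and 0.79 in the 4c si contrast (adjusted p = 2.73e-06). TBPL2 (chromosome 1, 184745719 to 184772051), which takes the place of TBP in oocytes, was at 10.2, 11.4 and 7.78 CPM in con-2c and 9.25, 7.62 and 7.96 in con-4c, with 5.94, 6.99 and 8.15 in si-2c, then 9.84, 10.3 and 7.80 in si-4c. Its groups overlapped and no difference passed (-0.24, adjusted p = 0.349, -0.47, adjusted p = 0.0625, and 0.17, adjusted p = 0.523, in the same order).

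TFIIA, which steadies TBP on DNA, has a subunit form from germ cells, GTF2A1L (chromosome 3, 91991690 to 92083062). It was at 190, 198 and 149 CPM in con-2c and 110.03, 112 and 121 in con-4c, with 117, 122 and 129.8 in si-2c, then 196, 198 and 179 in si-4c, again high in con-2c and si-4c (-0.65 in the controls, adjusted p = 6.08e-05). GTF2A2, the small TFIIA subunit, behaved likewise (-0.95, adjusted p = 8.07e-08), and GTF2A1 was among the most even genes, its highest group mean being 1.08 times its lowest. In TFIIE, which recruits TFIIH, GTF2E2 passed the adjusted p at -0.51 (adjusted p = 0.000757), and GTF2E1 did not pass in the controls (-0.04, adjusted p = 0.728). TFIIH opens the promoter DNA. Of its subunits GTF2H1 passed the adjusted p at 0.34 (adjusted p = 0.0208), and GTF2H3, GTF2H4 and GTF2H5 did not.

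Polymerase III is placed on transfer RNA genes by TFIIIC. GTF3C3 (chromosome 15, 100667312 to 100701705) was at 13.6, 15.6 and 12.2 CPM in con-2c and 10.3, 9.68 and 9.75 in con-4c, with 6.53, 5.60 and 7.92 in si-2c, then 12.8, 11.4 and 12.6 in si-4c. It was called lower in the 2c si contrast, without overlap (-1.04, SE 0.15, adjusted p = 6.14e-05), with values of -0.95 without con-2c replicate 2 and -0.93 without si-2c replicate 2. The GTF3C3 call was also lost with library totals (-0.64) and with a minimum of 5 CPM (-0.98). GTF3C6 passed the adjusted p in the controls (-0.70, adjusted p = 0.000431), and GTF3C1, GTF3C2 and GTF3C4 did not. TFIIIA, the 5S RNA gene factor encoded by GTF3A, stayed under 1 CPM in every group mean, as did GTF2H4, TAF6L and TAF1C. TAF5L, TAF6L and TAF15, which lie outside TFIID or are only loosely bound to it, were not called in any comparison with TMM scaling, and library totals called TAF5L (-1.19) and TAF15 (-1.05) in the interaction of si with title stage.

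Both si contrasts are set side by side here. In the 2c si contrast, 4 genes were higher (POLR2B, TAF1C, TAF1D and GTF2F1) and 5 lower (TAF13, TAF9, TAF9B, GTF2B and GTF3C3), beside 12.5% of all genes called, 10.7% higher and 1.8% lower. Scaling by library totals gave 9 higher and 0 lower. TAF1C had no count in con-2c and entered the tests only through groups with counts. Several fits that left out 1 library lost its call here. In the 4c si contrast, 4 were higher (TAF13, TAF9, TAF1A and GTF2B) and 10 lower (among them POLR1A, POLR1C, POLR2K, POLR2B, POLR2I, POLR3B, POLR3F, TAF1D and GTF2F1), beside 19% of all genes, 3.12% higher and 15.8% lower. Library totals gave 1 higher and 14 lower there, so that 6.67% in place of 28.6% of the calls were higher. GTF2F1, POLR2B and TAF1D were called higher in the first and lower in the second comparison, GTF2B, TAF13 and TAF9 the reverse, and none was called in the same direction in both. The interaction of si with title stage was called for 33 of the 69 genes, 16 positive and 17 negative, beside 32.4% of all genes (9.87% positive and 22.5% negative). Library totals gave 7 and 28, so that 20% in place of 48.5% of these calls were positive.

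**Figure D3:**
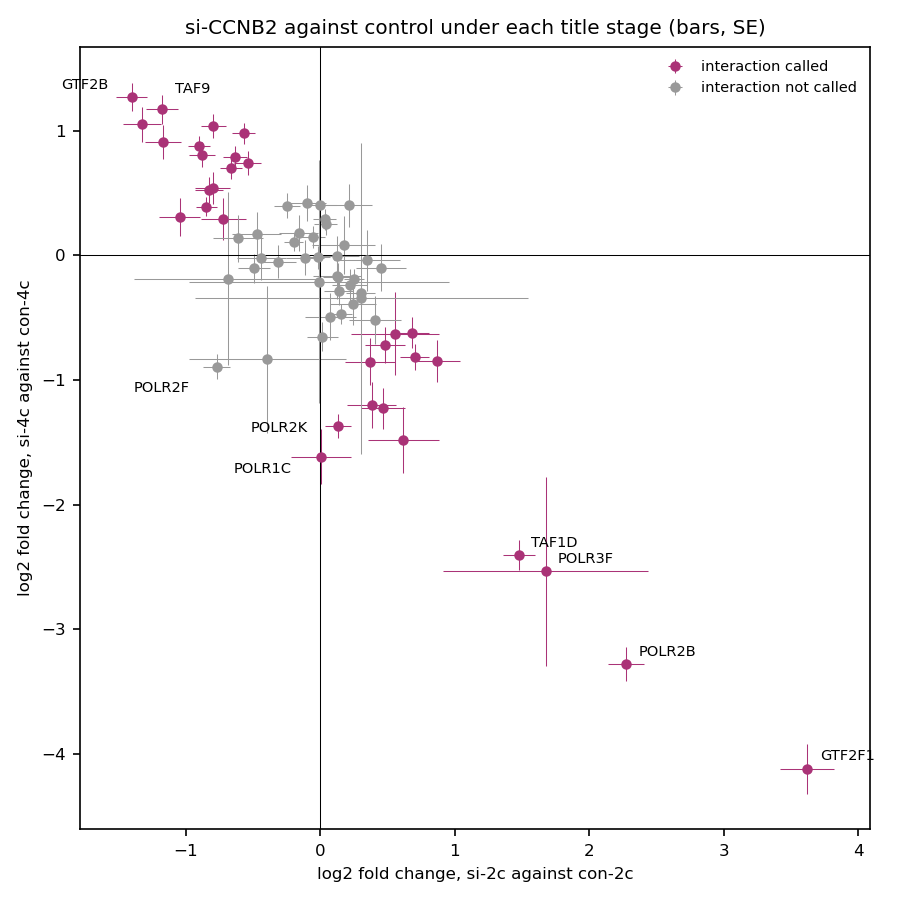
Log2 fold change of 67 genes in si-2c over con-2c (x axis) and in si-4c over con-4c (y axis), with SE bars, coloured by whether the interaction of si with title stage was called; the same genes are left out as in the plot of the control contrast. The points run from upper left (GTF2B) to lower right (GTF2F1), POLR1C and POLR2K lie near 0 on the x axis, and POLR2F is negative on both axes.

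Between the si groups, si-4c had 3 genes at a higher level than si-2c (TAF13 at 1.06, TAF9 at 1.22 and GTF2B at 1.40) and 3 at a lower one (POLR2B at -2.05, TAF1D at -1.48 and GTF2F1 at -3.33), beside 13.3% of all genes called (1.47% higher and 11.9% lower). Library totals gave 1 higher (GTF2B, with TAF13 at 0.68 and TAF9 at 0.84) and 6 lower, 14.3% in place of 50% of the calls being higher. These 6 genes had the opposite sign in the control contrast, a comparison that shares no library with this one.

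The crossed comparisons, which set si embryos under one title against controls under the other, gave few calls. In si-4c against con-2c none of the 69 genes was called by edgeR or by DESeq2, beside 0.333% of all genes (0.0333% higher and 0.3% lower). At an unadjusted p under 0.05 there were 8, beside 11.3% of all genes, and POLR2F alone passed the adjusted p (-0.58, SE 0.10, adjusted p = 0.0126). GTF2F1 differed by 0.29 (SE 0.21, adjusted p = 0.695), POLR2B by 0.22 (SE 0.14, adjusted p = 0.584) and TBPL1 by 0.04 (SE 0.09, adjusted p = 0.96).

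When si-2c was set against con-4c, 4 genes were called lower and none higher, beside 1.79% of all genes called, 0.161% higher and 1.63% lower. All 4 are polymerase subunits: POLR1C at -1.65 (SE 0.22, adjusted p = 0.000134), POLR2B at -1.23 (SE 0.12, adjusted p = 8.83e-06), POLR2F at -1.08 (SE 0.10, adjusted p = 6.28e-06) and POLR2K at -1.05. The libraries of the groups did not overlap for any of the 4. Without si-2c replicate 3 the call was lost for POLR2F (-0.98) and POLR2K (-0.96), both still past the adjusted p, and library totals gave the same 2 calls, POLR1C and POLR2B. TAF1D (-0.92, adjusted p = 6.55e-05) and GTF2F1 (-0.78, adjusted p = 0.00777) passed the adjusted p without the minimum fold, whereas GTF2B (-0.13, adjusted p = 0.653) and TBPL1 (0.11, adjusted p = 0.609) did not.

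Ratios of counts within a library do not depend on the scaling between libraries, and they are given for partners of 1 complex as a description. The pairs set genes that changed most over partners that changed less or the other way, and were chosen after their values were seen, so that the ratios differ between groups follows from the choice. The GTF2F1 to GTF2F2 ratio was 0.0269 ± 0.00648 in con-2c and 0.667 ± 0.0835 in con-4c, with 0.324 ± 0.0278 in si-2c and 0.0312 ± 0.00602 in si-4c. For POLR2B to POLR2A it was 0.417 ± 0.155, 3.73 ± 0.732, 1.41 ± 0.185 and 0.555 ± 0.140 in the same order. TAF1D to TAF1A gave 0.0257 ± 0.00507, 0.247 ± 0.0377, 0.123 ± 0.00715 and 0.0227 ± 0.000893, and TAF4B to TAF4 gave 1.42 ± 0.183, 3.95 ± 0.341, 2.24 ± 0.449 and 1.66 ± 0.252. In each of these pairs the con-4c mean was highest and the si-2c mean second, and the libraries of con-2c and si-4c overlapped.

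**Figure D4:**
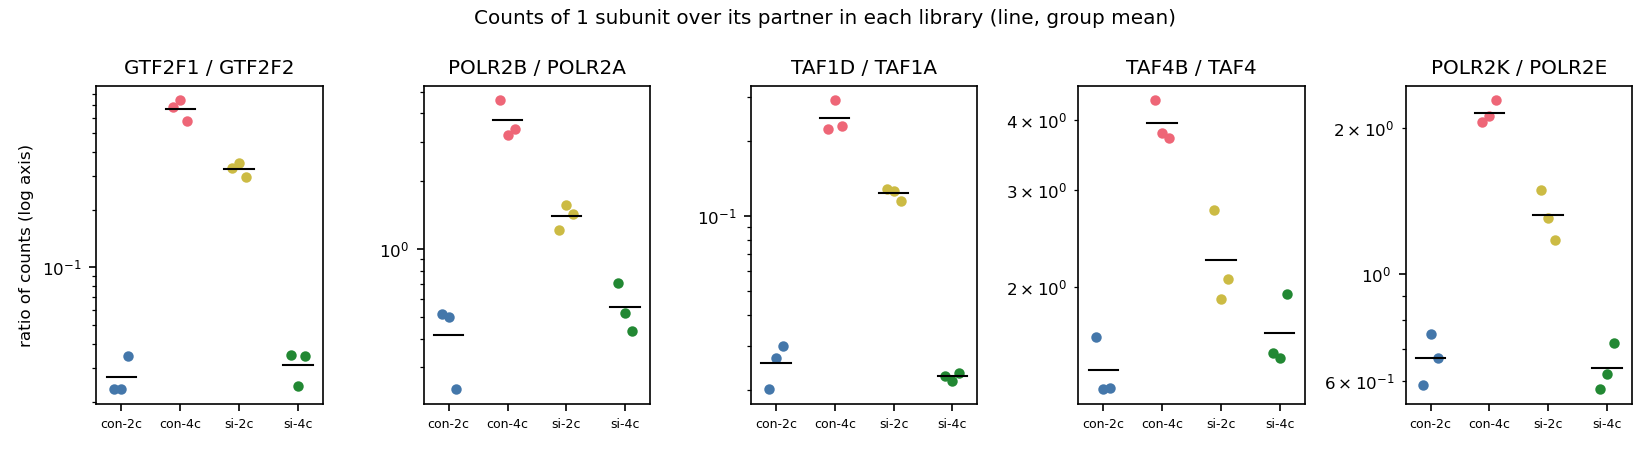
Ratio of the counts of 2 genes of 1 complex within each library (y axis, log scale; points, with the group mean as a line) by group (x axis) for 5 pairs. In every pair the 3 con-4c libraries lie highest, the si-2c mean comes second, and con-2c and si-4c overlap in the lowest range.

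By the adjusted p alone, with no minimum fold, the control contrast had 22 genes higher and 18 lower, beside 20.7% and 15.1% of all genes. The 2c si contrast had 11 and 20, beside 16.6% and 12.3%, and the 4c si contrast had 19 and 21, beside 15.1% and 21.7%. Between the si groups there were 18 and 12 (12.1% and 16.9% of all genes), for si-4c over con-2c 0 and 1 (0.106% and 0.567%), for si-2c over con-4c 1 and 12 (2.22% and 5.32%), and for the interaction 20 and 24 (18.2% and 27.3%). The libraries of the compared groups did not overlap for 44 of the 69 genes in the control contrast, for 37 in the 2c si contrast and for 47 in the 4c si contrast, beside 48.6%, 41.7% and 50.9% of all genes. They did not overlap for 33 genes between the si groups (42.8% of all genes), for 7 in si-4c over con-2c (14.1%) and for 28 in si-2c over con-4c (27.1%).

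For 29 of the 69 genes the highest group mean was less than 1.5 times the lowest, beside 34% of all genes. The adjusted p was passed in none of the 6 pairwise comparisons by 20 of the 69, beside 51.3% of all genes, with POLR1B, POLR1E, POLR3A, TAF2, TAF4, TAF5, TBPL2 and GTF2A1 among them. The median log2 fold change of the 69 genes was 0.15 in the control contrast, 0.02 in the 2c si contrast and -0.10 in the 4c si contrast, beside 0.11, 0.12 and -0.11 over all genes. Library totals moved the median of all genes to 0.38, 0.52 and -0.37, and relative to it the 69 genes lay at 0.04, -0.11 and 0.01 under either scaling. No called gene changed sign under any alternative. Among genes past the adjusted p but not called, library totals turned the sign of 6 values of 4 genes: GTF2E1 in the 2c si contrast (-0.20 to 0.20), between the si groups (0.27 to -0.12) and in the interaction (0.30 to -0.35), TAF1B in the 4c si contrast (0.25 to -0.0103), and GTF2E2 (0.64 to -0.0102) and TAF8 (0.52 to -0.13) in the interaction.

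Of 30 further genes of the transcription machinery, 27 were tested, and 3 were called higher and 2 lower in the control contrast, 18.5% beside 17.7% of all genes. RPRD1B, which binds the polymerase II tail, was higher (0.875 ± 0.317 CPM in con-2c and 9.28 ± 1.31 in con-4c, a difference of 3.40, adjusted p = 1.06e-07), as were SNAPC1 (1.17, adjusted p = 1.26e-06) of the small nuclear RNA promoter factor and the mitochondrial polymerase POLRMT (2.22, adjusted p = 0.00503). RPAP3, which helps to assemble polymerase II, was lower (485.5 ± 45.2 and 228 ± 4.00 CPM, a difference of -1.09, adjusted p = 1.19e-08), as was SNAPC5 (-1.06, adjusted p = 0.000578). In the 2c si contrast RPRD1B was called higher (2.57) and RPAP3 lower (-1.06), 7.41% of the genes tested beside 12.5% of all genes. In the 4c si contrast 2 were higher (RPAP3 and SNAPC5) and 4 lower (RPRD1B, RPRD1A, SNAPC1 and POLRMT), 22.2% beside 19% of all genes. None of the polymerase I factors UBTF, RRN3 and TTF1 was called in any comparison.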

How the data were processed

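SMART-seq libraries of pooled porcine embryos were analysed from 1 table of whole-number gene counts deposited by the authors. The submitters' processing notes name cutadapt 1.9, HISAT2 2.2.1, StringTie 2.1.6, DESeq2 and edgeR and the build Sscrofa11.1; how counts were made and whether strand was used is not given in the sources used here. Genes were filtered by edgeR's filterByExpr, leaving 17995 of 29329 (minimum 0.280 CPM), scaled by TMM and fitted in 1 model of 4 group means (edgeR 4.0.16, R 4.3.3). The interaction is the title-stage difference in si minus that in control embryos. The script was tested on simulated data. The labels do not say that replicates came from separate cultures, so p-values measure only the spread between these samples. Totals were 27785233 to 39510908, and the biological coefficient of variation was 27.3%; PCR reads without molecular identifiers are not independent molecules, so floors cover counting error only.

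Coordinates come from RefSeq (Sscrofa11.1), matched by symbol for 66 of the 69 genes (not POLR1F, POLR1G and POLR1H); 28 overlap another gene. Values per library were given for TBPL1, TBPL2, TAF4B, TAF7L, GTF2A1L, POLR1A, POLR2A, POLR3A and GTF2B, for the 8 smallest p-values in each direction among called genes in the control and both si comparisons, and for genes called in a crossed comparison. The counts cover all 69 genes; the values of 1 of them are not reported here. The genes and lists were chosen with earlier results of these data known. Alternatives were DESeq2 1.42.0, library totals, 2 other filters, 2 other thresholds, a replicate block and leaving out each library.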

Additional observations from a re-analysis of the deposited data

Results flagged for a closer look

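Each of the following genes was picked out because the si difference was not the same under the 2 titles, by the interaction term itself (edgeR's quasi-likelihood test with Benjamini-Hochberg adjustment, at least 2-fold). Negative values mean that the step from title 2c to 4c was lower in si than in control embryos. Among polymerase subunits the values were -1.58 for POLR1A, -1.62 for POLR1C, -1.52 for POLR2H, -1.50 for POLR2K, -5.55 for POLR2B, -2.10 for POLR2I, -1.69 for POLR3B, -1.30 for POLR3E and -4.21 for POLR3F. Positive values among them were 1.01 for POLR1H, 1.24 for POLR2E, 1.55 for POLR2C and 1.36 for POLR3K. POLR3F had only 8, 7 and 7 counts in con-2c and 14, 0 and 15 in si-4c. It passed the filter on low counts only through the groups where it was high, and was not tested with a minimum of 5 CPM.

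Among the TBP relatives and TAFs the negative values were -1.22 for TAF10, -1.20 for TAF3, -1.72 for TAF4B, -1.18 for TAF6, -3.88 for TAF1D and -7.60 for TAF1C, the last a fitted value that is no bound because con-2c had no count. The positive ones were 1.42 for TBPL1, 1.35 for TAF11, 1.69 for TAF12, 2.38 for TAF13, 2.35 for TAF9, 2.08 for TAF9B and 1.83 for TAF1A. The other general factors gave -7.74 for GTF2F1, 1.28 for GTF2A1L, 1.78 for GTF2A2, 2.67 for GTF2B, 1.35 for GTF3C3 and 1.34 for GTF3C6. TAF6 was close to the threshold (adjusted p = 0.0482) and lost its call in 9 of the 12 fits that left out 1 library, as well as with the replicate block and with no filter. POLR1H was close to the minimum fold and lost its call in 7 of the 12, as well as with DESeq2, library totals and a minimum of 5 CPM. Library totals also ended the positive calls of TAF11 (0.69), GTF3C6 (0.67), POLR3K (0.71), GTF3C3 (0.68), POLR2E (0.58), TBPL1 (0.76), POLR2C (0.89) and GTF2A1L (0.62), each still past the adjusted p, and added 11 negative calls, from -1.05 for TAF15 to -1.56 for POLR2A. TAF1C lost its call without si-2c replicate 1 (-6.66, adjusted p = 0.053).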

How the results depend on the processing

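Counts of called genes are given here as higher and lower. Library totals gave 16 and 1 in con-4c against con-2c (11 and 4 with TMM), 9 and 0 in si-2c against con-2c (4 and 5), 1 and 14 in si-4c against con-4c (4 and 10), 1 and 6 in si-4c against si-2c (3 and 3), 0 and 2 in si-2c against con-4c (0 and 4), and 7 and 28 for the interaction (16 and 17). With no minimum fold the counts were 22 and 18, 11 and 20, 19 and 21, 18 and 12, 1 and 12, and 20 and 24 in the same order, and 0 and 1 in si-4c against con-2c. At an adjusted p under 0.01 and 4-fold they were 4 and 0, 2 and 0, 0 and 3, 0 and 2, 0 and 0, and 4 and 5. A minimum of 5 CPM in a group left 2 higher in si-4c against con-4c, losing TAF1A and TAF13. DESeq2 and no filter kept every count within 1.5 times.

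Leaving out each library gave 10 to 12 and 4 to 5, 3 to 5 and 4 to 5, 3 to 5 and 9 to 11, 3 to 6 and 3 to 4, 0 and 2 to 4, and 15 to 16 and 15 to 18, and always 0 and 0 in si-4c against con-2c. Without si-2c replicate 3 there were 6 higher in si-4c against si-2c and 2 lower in si-2c against con-4c. Without si-2c replicate 2, CCNB2 rose past the minimum fold in si-4c against si-2c (1.11) and in the interaction (1.09); over the libraries left out these ran from 0.76 to 1.11 and from 0.74 to 1.09. The deviations of same-numbered libraries were little correlated (-0.05 to 0.03 over 18 pairs, each under 0.1), with the own number best in 8 of 18. The own number was best in every pair of con-4c with si-2c or si-4c. With 3 libraries per group, these values cannot tell whether the numbers mark a shared batch. With the replicate block the counts were 11 and 4, 4 and 5, 4 and 10, 3 and 3, 0 and 4, and 16 and 16. Over the 69 genes, the 7 comparisons and all refitted settings, 8027 values kept their side of the threshold, 65 lost a call, 56 gained one, 0 reversed and 63 were not tested under a stricter filter. Genes under 1 CPM (TAF1C, GTF2H4, TAF6L and GTF3A) are limited by depth. The cause of these changes was not tested.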
